A study of Mus musculus with 15 samples.

Results

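The Schlafen genes form a family clustered on mouse chromosome 11, and 7 of them (Slfn1, Slfn2, Slfn3, Slfn4, Slfn5, Slfn8 and Slfn9) were followed in mouse lung through bleomycin injury. They were picked by gene symbol, each Ensembl identifier having been given its GENCODE M21 symbol, and made up 7 of the 33340 genes in the count table. The family was proposed because Slfn4 fell steeply at day 7. All 7 passed the filter on low counts, which left 17457 genes, and together they held 0.0223% to 0.0452% of the counts of a library.

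Whole lungs of male C57BL/6 mice, 10 to 12 weeks old by the methods, were taken untreated (day 0) or 7, 14 and 21 days after 1 dose of bleomycin given into the trachea at 5 U/kg, a drug that breaks DNA and is used to model lung fibrosis. There were 4 libraries at each of days 0, 7 and 14 and 3 at day 21, and no genotype beyond the strain was stated. Day 0 replicate 4 carried a control title but a bleomycin treatment label, and was treated as a control here. The labels number the replicates without naming the animals, so p-values measure the spread between these samples. The untreated mice are not described as having received vehicle, so instillation and drug cannot be told apart. Total counts lay between 15652008 and 18020661, and mitochondrial genes took 2.03% to 4.22% of them. Surfactant protein C (Sftpc), the defining transcript of alveolar type 2 cells, lay between 2213 and 25096 CPM in the 15 libraries, as in lung tissue.

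Schlafen proteins share an N-terminal core domain, and the long members also carry a C-terminal helicase-like domain. Many Schlafen genes respond to type I interferon, which acts through its receptor, the JAK kinases and a transcription factor complex, holding IRF9, that binds the interferon-stimulated response element. The first mouse members were described as growth regulators of developing and activated T cells, and several are expressed in myeloid cells, which enter the lung in numbers during injury.

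The 7 genes lay within 263.8 kb of chromosome 11 (mm10; positions 82951349 to 83215154). Slfn5 (ENSMUSG00000054404) lay at chr11:82951349-82964840 on the plus strand. Slfn9 (ENSMUSG00000069793) lay at chr11:82978390-82991830 and Slfn8 (ENSMUSG00000035208) at chr11:83002158-83020810, both on the minus strand. Slfn2 (ENSMUSG00000072620) lay at chr11:83065112-83070678, Slfn1 (ENSMUSG00000078763) at chr11:83116849-83122670, Slfn4 (ENSMUSG00000000204) at chr11:83175186-83190216 and Slfn3 (ENSMUSG00000018986) at chr11:83191330-83215154, all on the plus strand. The annotated coding sequences, without the stop codon, ran to 337 codons in Slfn1 and 378 in Slfn2, to 602 in Slfn4 and 640 in Slfn3, and to 884 in Slfn5 and 910 each in Slfn8 and Slfn9. Slfn3 and Slfn4 matched at 93.5% of aligned coding bases, Slfn8 and Slfn9 at 92.7%, and Slfn1 and Slfn2 at 76.2%. Slfn1 was closer to Slfn4 (80.4%) and Slfn3 (79.6%) than to Slfn2, and Slfn2 was closer to Slfn3 (80.5%) and Slfn4 (78.8%) than to Slfn1.

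Because of this likeness, reads could be misplaced between members, and the deposited counts left out reads with several alignments. No stretch of 150 bases, the read length, was the same in any 2 members' transcripts. Of the 150-base stretches of a member's transcripts, 5.46% in Slfn5 were also found in its antisense gene Slfn5os. The share was 1.46% in Slfn9 (the pseudogene Slfn10-ps) and 1.29% in Slfn3 (the predicted gene Gm11427). These are shares of stretches, not of transcript length: Slfn5os shared 559 of the 6326 exonic bases of Slfn5. The strand setting of the counting was not stated, so Slfn5 and Slfn5os reads cannot be told apart where both are exonic, but Slfn5os itself had 0 to 15 counts. Gm20234, antisense to Slfn2, had 0 to 16 counts and shared no exonic base with it.

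A stretch upstream of the start, ending within 23 bases of it or, in Slfn5, 105 bases before it, is printed for each member, since near-identical letters stood before genes whose RNA moved differently. All are from the RefSeq promoters of GRCm38.p6 (250 bases before to 50 after each start), read 5′ to 3′ on the gene's own strand. Capitals mark the interferon-stimulated response element GAAANNGAAACT (AGTTTCNNTTTC on the other strand) in Slfn8 and Slfn9, and its shorter core GAAANNGAAA in Slfn5. These stretches lie at chr11:83020813-83020910 (Slfn8), chr11:82991831-82991927 (Slfn9) and chr11:82951907-82951996 (Slfn5), where the RefSeq start of Slfn5 lies inside the GENCODE gene. RefSeq also gives Slfn8 another start. Counted from that start the same element begins at -138, against -50 from the start used here and -47 in Slfn9.
Slfn8: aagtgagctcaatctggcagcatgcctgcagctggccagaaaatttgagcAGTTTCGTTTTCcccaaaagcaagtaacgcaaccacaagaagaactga
Slfn9: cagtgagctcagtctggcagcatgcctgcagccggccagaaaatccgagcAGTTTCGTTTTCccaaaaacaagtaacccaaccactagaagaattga
Slfn5: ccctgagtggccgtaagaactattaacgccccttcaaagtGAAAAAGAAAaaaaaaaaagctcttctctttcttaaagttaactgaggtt

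In the short and intermediate members the capitals mark ACTTCCTGGAG, the longest stretch shared by the promoters of Slfn1, Slfn2 and Slfn4, or in Slfn3 its first 9 letters ACTTCCTGG, the longest shared by all 4. Both hold GGAA on the other strand, the core that ETS factors bind. These stretches lie at chr11:83116706-83116796 (Slfn1), chr11:83065017-83065107 (Slfn2), chr11:83175073-83175163 (Slfn4) and chr11:83191248-83191329 (Slfn3).
Slfn1: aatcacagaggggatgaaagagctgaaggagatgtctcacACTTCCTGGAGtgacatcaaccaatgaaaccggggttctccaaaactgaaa
Slfn2: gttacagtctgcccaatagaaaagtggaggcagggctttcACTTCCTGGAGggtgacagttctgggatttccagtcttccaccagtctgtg
Slfn4: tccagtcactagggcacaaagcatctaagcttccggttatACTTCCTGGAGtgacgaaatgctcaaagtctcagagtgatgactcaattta
Slfn3: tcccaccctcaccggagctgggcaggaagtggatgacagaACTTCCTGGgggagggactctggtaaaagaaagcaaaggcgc

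Both strands were searched in 32851 promoters. GAAANNGAAACT stood in 0.271% of them, GAAANNGAAA, which it contains, in 3.44%, ACTTCCTGG in 0.843%, and ACTTCCTGGAG, which contains ACTTCCTGG, in 0.0731%. The last pair were read off these promoters after their values were seen. A match describes letters only, and its use as a site was not measured.

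Slfn4, an intermediate member described in myeloid cells, went from one of the more abundant members, per length of transcript, to the least abundant. Its CPM (counts scaled to library size with TMM factors) was 57.1, 98.8, 96.4 and 39.1 in the day 0 libraries and 6.68, 10.4, 10.0 and 22.3 at day 7. It was 5.08, 6.44, 26.5 and 14.7 at day 14 and 3.52, 3.36 and 3.65 at day 21. Every later library lay below every day 0 library, day 14 was spread widely, and the 3 libraries of day 21 were close together and below all others. Over all genes tested, 30.8%, 31.1% and 35.5% did not overlap day 0, in one direction or the other, at days 7, 14 and 21.

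Against day 0, the log2 fold change of Slfn4 was -2.56 (SE 0.47) at day 7, -2.46 (SE 0.47) at day 14 and -4.37 (SE 0.60) at day 21, or 5.91-, 5.5- and 20.7-fold lower. Leaving out 1 library gave -3.01 to -2.38, -3.06 to -2.21 and -4.61 to -4.22, the lowest at day 7 without replicate 4 of that day and at day 14 without its replicate 3. These are given without a test, because the fall at day 7 put the family forward and the later contrasts share its day 0 libraries. For the same reason day 7 against day 0 is given without a test for every member. Mitochondrial share differed among libraries of a day, and the value was -2.68 at day 7 among libraries with under 2.5% (4 of day 7, 2 of day 0) and -2.10 at day 14 among those with over 3.5% (3 of day 14, 2 of day 0). Day 21 had 1 library over 3.5%, too few for such a value, and with the share as a covariate Slfn4 stood at -4.44 there. In bulk tissue, fewer cells of a type and less RNA per cell cannot be told apart.

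The step from day 14 to day 21 used no library of the selecting contrast. There Slfn4 was lower by a log2 fold change of -1.91 (SE 0.56; interval of 2 SE, -3.03 to -0.80) with no overlap between the groups, which 2.95% of all genes tested also showed in that direction. It did not pass the edgeR quasi-likelihood test (Benjamini-Hochberg adjusted p = 0.297, unadjusted p = 0.00359). In that contrast 0 of the 17457 genes were called (0.0%; adjusted p under 0.05 and fold over 1.5), while 1714 had an unadjusted p under 0.05, DESeq2 called 101 genes and limma voom 0. With edgeR the count was 37 with no filter, and 127, 3 and 24 without day 14 replicate 1, day 21 replicate 2 and day 21 replicate 3. Leaving out 1 library at a time gave Slfn4 values from -2.19 to -1.32.

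**Figure D1:**
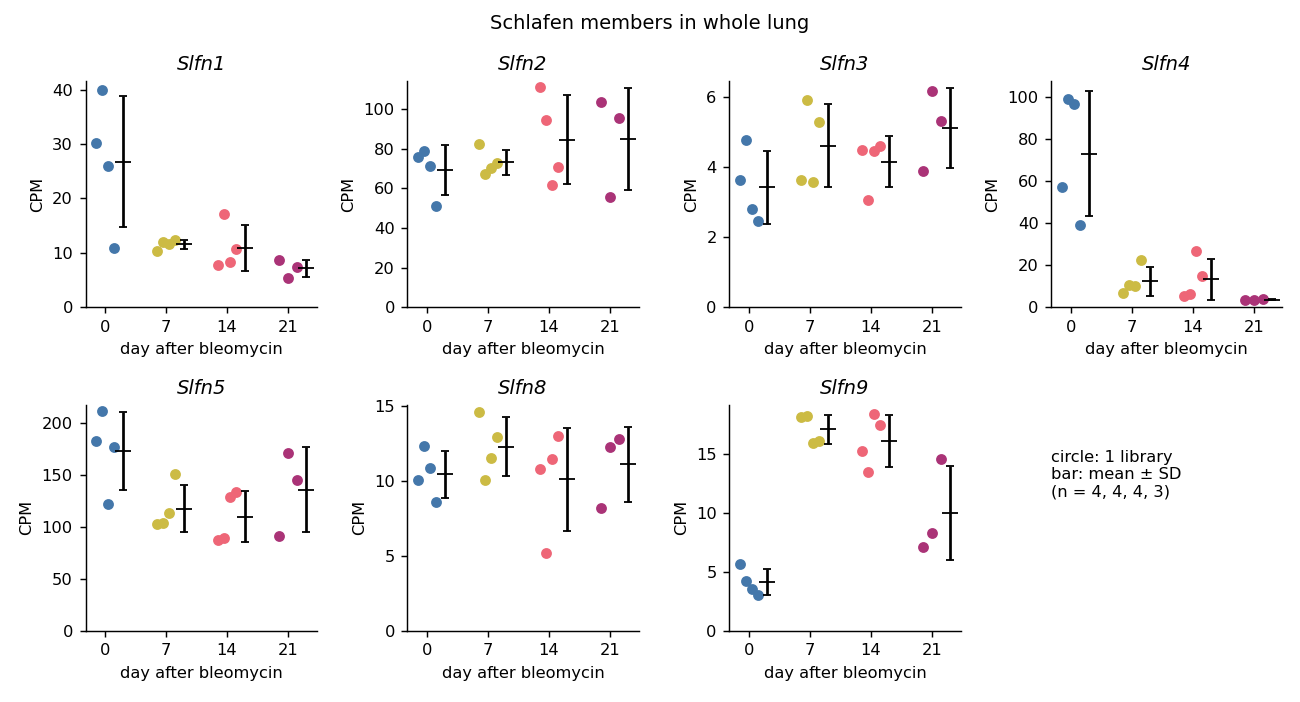
CPM of the 7 Schlafen members on the y axis (each panel with its own scale from 0) against day after bleomycin on the x axis. Circles are libraries and bars the mean ± SD (n = 4, 4, 4 and 3); all Slfn4 circles after day 0 sit at or below 26.5 CPM, and all Slfn9 circles after day 0 at or above 7.11 CPM.

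Slfn1, a short member known as a brake on T cell growth, also fell, and Slfn2, the other short member, which keeps T cells and monocytes quiescent, did not pass the test. Slfn1 was at 30.2, 39.8, 26.0 and 10.9 CPM at day 0 and at 10.3, 11.9, 11.6 and 12.3 CPM at day 7. It was at 7.80, 17.0, 8.35 and 10.6 CPM at day 14 and at 8.60, 5.36 and 7.35 CPM at day 21. Day 0 replicate 4, the library with the conflicting treatment label, lay among the day 7 and day 14 values, and only day 21 lay wholly below day 0.

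The log2 fold change of Slfn1 against day 0 was -1.21 (SE 0.32, not tested) at day 7. It was -1.29 (SE 0.32; adjusted p = 0.00579 in the edgeR quasi-likelihood test, Benjamini-Hochberg) at day 14 and -1.91 (SE 0.36; adjusted p = 0.00107) at day 21. Both passed the thresholds in each fit that left out 1 library, with ranges of -1.60 to -1.05 and -2.20 to -1.69. Among libraries with over 3.5% mitochondrial counts (3 of day 14 and 2 of day 0), Slfn1 was at -0.63 (adjusted p = 0.319) at day 14.

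Slfn2 was at 75.9, 79.2, 71.6 and 51.1 CPM at day 0 and at 82.3, 67.4, 70.3 and 72.8 CPM at day 7. It was at 111.3, 94.6, 61.8 and 70.9 CPM at day 14 and at 103.8, 55.6 and 95.5 CPM at day 21, and the groups overlapped throughout. Its log2 fold change was 0.29 (interval of 2 SE, -0.12 to 0.70; adjusted p = 0.305 by edgeR) at day 14 and 0.29 (-0.15 to 0.73; adjusted p = 0.346) at day 21. The ratio of Slfn1 to Slfn2 counts within a library went from 0.214–0.503 at day 0 to 0.125–0.177, 0.0701–0.180 and 0.0770–0.0964 at days 7, 14 and 21, so the later ranges lay below that of day 0. These ratios were chosen after the values were seen and are a description. Exact two-sided permutation tests of their log2 values against day 0 gave p = 0.0286 at day 14 and p = 0.0571 at day 21, the smallest each design allows (adjusted p = 0.0571 for both, over 4 such tests), and nothing is rested on them.

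Slfn9, a long member, moved the other way. It was at 5.63, 4.23, 3.56 and 3.07 CPM at day 0 and at 18.1, 18.1, 15.9 and 16.1 CPM at day 7. It was at 15.2, 13.5, 18.4 and 17.4 CPM at day 14 and at 7.11, 8.32 and 14.5 CPM at day 21. Every later library lay above every day 0 library, and all 3 of day 21 lay below those of day 7.

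The log2 fold change of Slfn9 against day 0 was 2.05 (SE 0.23, not tested) at day 7. It rose by 1.97 (SE 0.23; adjusted p = 1.68e-05 in the edgeR quasi-likelihood test, Benjamini-Hochberg) at day 14 and by 1.28 (SE 0.24; adjusted p = 0.00104) at day 21. Both rises passed in every alternative, between 1.83 and 2.30 at day 14 and between 0.87 and 1.44 at day 21. Slfn9 was lower at day 21 than at day 7 by a log2 fold change of -0.77 (SE 0.24; adjusted p = 0.0433). This call was lost without day 21 replicate 1 or 2 or without any 1 day 7 library (adjusted p from 0.0679 to 0.154), and with mitochondrial share as a covariate (-0.51, adjusted p = 0.253).

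Slfn8, whose coding sequence and upstream stretch are closest to those of Slfn9, passed no test. It ranged over 8.59–12.3, 10.0–14.6, 5.17–13 and 8.22–12.8 CPM at days 0, 7, 14 and 21, and all groups overlapped. Its log2 fold change was -0.05 (interval of 2 SE, -0.53 to 0.43; adjusted p = 0.900 by edgeR) at day 14 and 0.09 (-0.43 to 0.60; adjusted p = 0.831) at day 21. The ratio of Slfn9 to Slfn8 counts was 0.327–0.561, 1.24–1.81, 1.34–2.6 and 0.679–1.13 at days 0, 7, 14 and 21, also chosen after the values were seen. The same exact permutation tests gave p = 0.0286 at day 14 and p = 0.0571 at day 21 (adjusted p = 0.0571 for both), again the smallest possible. The 2 genes with the same 12 capital letters upstream thus had separate ranges of this ratio at day 0 and at each later day.

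Slfn5, a long member known as an interferon-regulated nuclear protein, had the highest mean CPM of the members at each day, though Slfn2 was higher in day 14 replicates 1 and 2 and day 21 replicate 1. It was at 183.6, 211.8, 121.8 and 177.0 CPM at day 0 and at 102.7, 104.2, 113.2 and 151.4 CPM at day 7. It was at 87.9, 89.9, 128.8 and 133.8 CPM at day 14 and at 91.7, 171.7 and 145.0 CPM at day 21. Each later day overlapped day 0, whose replicate 3 was low.

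Slfn5 had a log2 fold change of -0.56 (SE 0.21, not tested) at day 7. It fell at day 14 by 0.66 on the log2 scale (SE 0.21; adjusted p = 0.0279 in the edgeR quasi-likelihood test, Benjamini-Hochberg), and at day 21 its value was -0.35 (SE 0.23; adjusted p = 0.279). The day 14 call was lost without day 0 replicate 1, 2 or 4 or day 14 replicate 1 or 2, with values from -0.66 to -0.57 and adjusted p from 0.0511 to 0.0756. It was also lost among libraries with over 3.5% mitochondrial counts (-0.36, adjusted p = 0.288).

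Slfn3, an intermediate member studied in T cells and gut epithelium and the nearest relative of Slfn4, had 44 to 108 counts a library. It ranged over 2.45–4.78, 3.57–5.92, 3.06–4.59 and 3.90–6.15 CPM at days 0, 7, 14 and 21, and the groups overlapped. Its log2 fold change was 0.28 (interval of 2 SE, -0.23 to 0.80; adjusted p = 0.430 by edgeR) at day 14 and 0.58 (0.03 to 1.14; adjusted p = 0.125) at day 21. The ratio of Slfn4 to Slfn3 counts, given as a description, went from 15.8–34.5 before bleomycin to 1.75–4.21, 1.13–5.95 and 0.546–0.905 at days 7, 14 and 21. Slfn4 was thus counted more often than Slfn3 in every library up to day 14, and less often in all 3 of day 21.

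**Figure D2:**
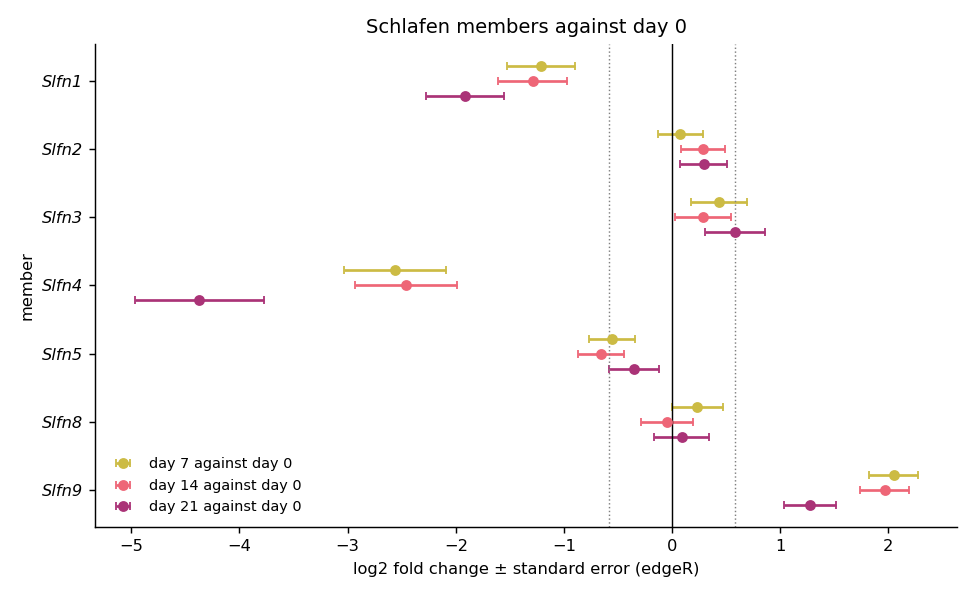
Log2 fold change against day 0 on the x axis for each member on the y axis, with standard errors as bars, at days 7, 14 and 21; dotted lines mark a fold of 1.5. Slfn4 and Slfn1 lie left of the lower line and Slfn9 right of the upper line at all 3 days, and Slfn2 and Slfn8 stay between the lines.

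Of the 6 members other than Slfn4, 3 were called at day 14 against day 0 (Slfn9 higher, Slfn1 and Slfn5 lower), where 23.1% of all genes tested were called. At day 21 there were 2 (Slfn9 higher, Slfn1 lower), against 22.5% of all genes. Their median log2 fold change was 0.12 at day 14 and 0.19 at day 21, beside 0.02 over all genes at both days. Between later days, 0 of the 6 were called at day 14 against day 7 (6.0% of all genes), with log2 fold changes from -0.28 for Slfn8 to 0.21 for Slfn2, and Slfn4 stood at 0.10 there, given without a test (from -0.49 to 0.55 on leaving out 1 library). At day 21 against day 7, 1 of the 6 was called (Slfn9), against 9.54% of all genes.

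Groups that did not overlap are counted over the 6 members other than Slfn4. At day 7, and again at day 14, 1 of the 6 (Slfn9) lay wholly above day 0 and 0 wholly below it, while 30.8% and 31.1% of all genes did not overlap in one direction or the other. The day 7 count comes from the contrast that put the family forward, and nothing is read from it. At day 21 Slfn9 lay above and Slfn1 below, against 35.5% of all genes. At day 21 Slfn9 and Slfn1 also lay wholly below day 7, which 13.4% of genes did (28.0% in either direction), while 0 of the 6 separated day 14 from day 7, which 16.3% of genes did. These contrasts share libraries and are not separate evidence.

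Levels of different members were compared as CPM per kb of exon. At day 0 the order of means was Slfn2 (41.7), Slfn5 (27.4), Slfn4 (18.4), Slfn1 (14.4), Slfn8 (2.56), Slfn3 (1.0) and Slfn9 (0.691), and among neighbours only Slfn1 with Slfn8 and Slfn8 with Slfn3 did not overlap. At day 7 it was Slfn2 (44), Slfn5 (18.6), Slfn1 (6.18), Slfn4 (3.11), Slfn8 (3.0), Slfn9 (2.86) and Slfn3 (1.35). At day 14 it was Slfn2 (50.9), Slfn5 (17.4), Slfn1 (5.88), Slfn4 (3.33), Slfn9 (2.70), Slfn8 (2.47) and Slfn3 (1.22). Slfn2, Slfn5 and Slfn1 were the top 3 at both days, without overlap between neighbours, and the genes below them overlapped except Slfn9 with Slfn3 at day 7.

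At day 21 Slfn2 (51.1), Slfn5 (21.5) and Slfn1 (3.81) again led, followed by Slfn8 (2.71), Slfn9 (1.67), Slfn3 (1.5) and Slfn4 (0.886). Slfn3 and Slfn4 did not overlap there, so Slfn4 was the lowest member in each library. The sum of the 7 was 106.1 ± 22.5 CPM per kb at day 0 (SD, n = 4), 79.1 ± 6.28 at day 7 (n = 4), 83.9 ± 7.28 at day 14 (n = 4) and 83.2 ± 11.4 at day 21 (n = 3). Slfn4 made up 12.7% to 23.3% of it at day 0, and 2.09% to 6.44%, 1.38% to 8.82% and 0.997% to 1.20% at days 7, 14 and 21. The mean share of Slfn2 was 39.5% at day 0 and 55.7%, 60.0% and 60.5% at the later days.

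**Figure D3:**
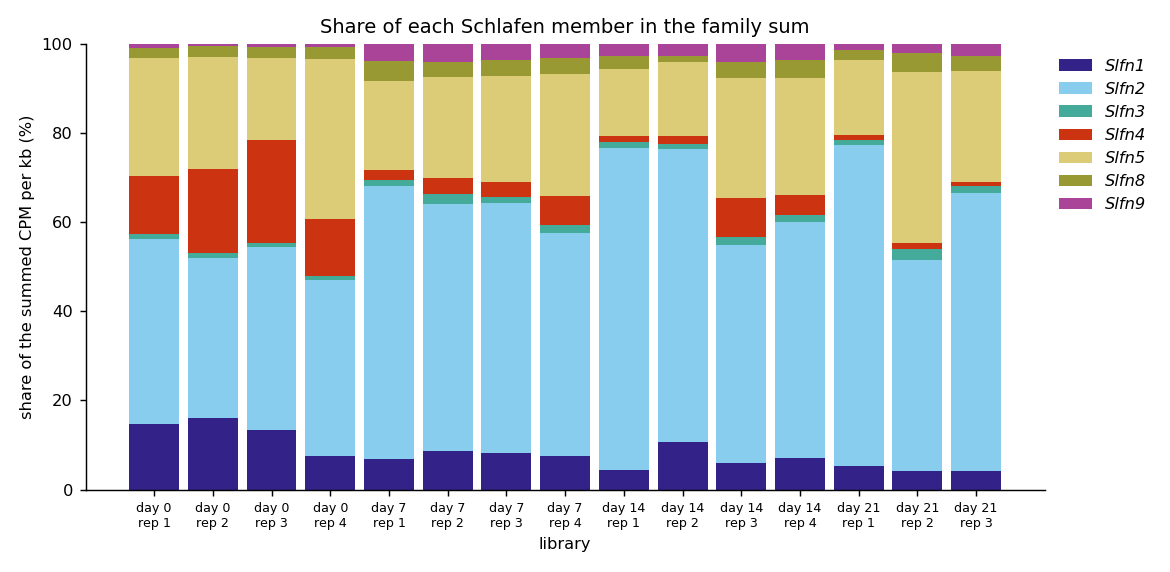
Share of each member in the summed CPM per kb (y axis, percent) in each of the 15 libraries (x axis), stacked to 100. The Slfn4 segment takes 12.7% to 23.3% of the day 0 bars and at most 8.82% of any later bar.

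Other genes with a Schlafen name were near the limit of detection. The pseudogene Slfn10-ps, with 4 to 49 counts, was at a mean of 0.555 CPM at day 0 and 2.02 CPM at day 21, and rose by a log2 fold change of 1.84 (SE 0.53; adjusted p = 0.0161 by edgeR). At day 14 its value was 1.31 (SE 0.51; adjusted p = 0.0574). It shares sequence with Slfn9, and which of the 2 gave its reads was not tested. Slfn14 had 0 to 34 counts and passed no test, and Slfnl1, on chromosome 4, had 0 to 7 counts and was not tested.

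The 38 interferon response genes did not follow the members in one direction. At day 14 against day 0, 4 were called higher and 1 lower (median log2 fold change -0.12, beside 0.02 over all genes), and at day 21, 2 higher and 3 lower (median -0.28, beside 0.02). Over all genes tested, 23.1% and 22.5% were called at those days in either direction (1951 and 1757 of the 17457 lower). At day 7, 6 of the 38 were higher and none lower (median 0.12, beside 0.01), while 16.1% of all genes were called at day 7, 8.78% higher. Their summed level was 1092–1310, 1215–1515, 887–1508 and 799–1295 CPM at days 0, 7, 14 and 21, with overlap.

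At day 14 the ubiquitin-like modifier Isg15 (log2 fold change 0.90), the nucleic acid sensor Zbp1 (0.75) and the GTPase Iigp1 (0.69) rose and the GTPase Gbp7 fell (-0.62), with adjusted p of 0.0317, 0.0133, 0.00543 and 0.0105 by edgeR. At day 21 the antiviral GTPase Mx1 (1.21) and Iigp1 (0.91) rose and the nucleotide kinase Cmpk2 (-0.87), the GTPase Gbp2 (-0.63) and Ifi35 (-0.60) fell, with adjusted p of 0.0372, 0.00146, 0.0368, 0.0310 and 0.0232. The rises of Slfn9 at day 14 (1.97) and day 21 (1.28) and the values of Slfn1 and Slfn4 lay outside the range of this list, which ran from -0.62 to 0.90 at day 14 and from -0.87 to 1.21 at day 21. Slfn4 was chosen for its fall from the same day 0 libraries, so nothing is read from its place. At day 21 Slfn9 (SE 0.24) lay close to Mx1 (SE 0.41), the top of the list.

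Of 13 interferon signalling genes tested, the feedback inhibitor Socs1 (0.87, adjusted p = 0.0363 by edgeR) and the receptor chain Ifngr2 (0.81, adjusted p = 0.000266) rose at day 14, and the transcription factor Irf1 fell at day 21 (-0.68, adjusted p = 0.00630). The transcription factor Irf9 passed no test at day 14 (-0.12) or day 21 (-0.42). Irf7, a transcription factor counted in the response list, was among the 6 genes higher at day 7 (0.80, adjusted p = 0.0269 by edgeR), and at days 14 and 21 its values of 0.39 and 0.48 did not pass. Ifng, the type II interferon, had 0 to 4 counts and was not tested. At day 14 against day 7, 1 of the 38 response genes was called lower and 0 higher. At day 21 against day 7, 5 were lower and 0 higher (median -0.31, beside 0.00 over all genes), and 1 signalling gene, Socs1, was lower. Over all genes tested, 6.0% and 9.54% were called in these 2 contrasts in either direction (564 and 758 of the 17457 lower). At day 21 against day 14, 0 genes in either list were called, as over all genes tested.

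**Figure D4:**
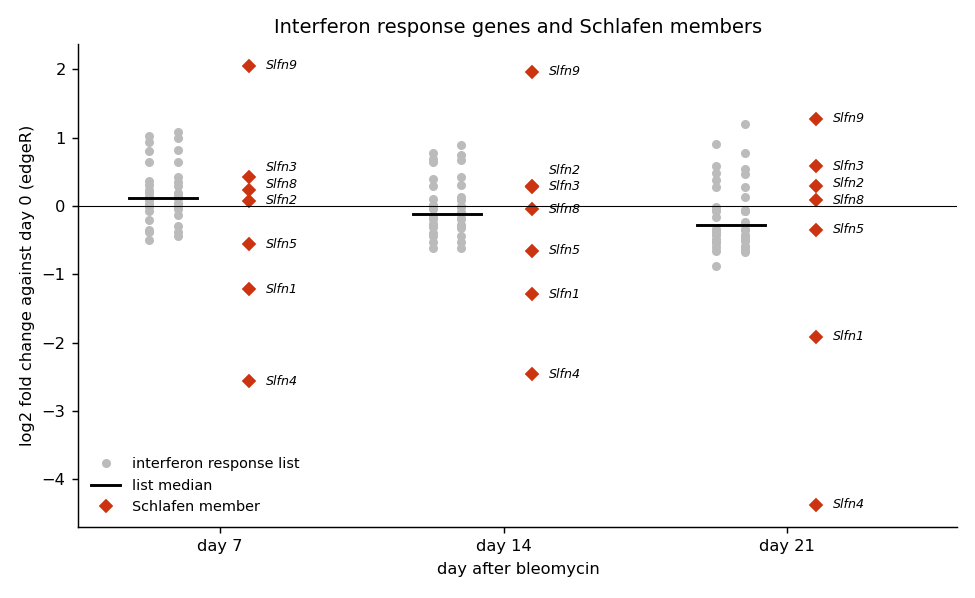
Log2 fold change against day 0 (y axis) at days 7, 14 and 21 (x axis) for 38 interferon response genes (grey circles, black line their median) and the 7 members (red diamonds). Slfn9 lies above and Slfn1 and Slfn4 below every grey circle at all 3 days. Slfn4 was chosen for its fall at day 7, so nothing is read from its place here.

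Marker genes of the lung's cell types also differed between days, in both directions. The summed level of 8 neutrophil genes was 409–941, 101–287, 141–473 and 94.8–193 CPM at days 0, 7, 14 and 21. At day 7, 4 of the 8 were called lower, at day 14, 2 and at day 21, 5, with medians of -1.81, -0.97 and -2.45. Over all 17457 genes tested, 1285, 1951 and 1757 were called lower at those days. The defining gene Ly6g had 0 to 49 counts and was at 0 in at least 1 library, and S100a9, the most abundant, ranged over 196–328 CPM at day 0 and 18.5–52.7 at day 21. Within day 0, the neutrophil sum was 651, 941, 615 and 409 CPM in replicates 1 to 4, the same order as Slfn1 but not as Slfn4, which was lower in replicate 1 than in replicate 3. Within day 7 the sum was 101, 253, 139 and 287 CPM, the same order as both Slfn4 and Slfn1. Within day 14 the sum was 184, 313, 473 and 141 CPM. Slfn4 was also highest in replicate 3 there, but next highest in replicate 4, the lowest in the neutrophil sum, and Slfn1 was highest in replicate 2. Within day 21 the sum was 193, 94.8 and 101 CPM in replicates 1 to 3, the order of Slfn1 but not of Slfn4.

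Classical monocyte genes summed to 1124–1577, 1253–1580, 781–1202 and 753–1104 CPM at days 0, 7, 14 and 21. Most of that sum was Hp, which averaged 1207 CPM at day 0 and 650 CPM at day 21 and, with Ms4a4c, was called lower at day 21, while F13a1 averaged 40.2 and 114 CPM and was not called. Of 5 nonclassical monocyte genes, 3 were called lower at day 14 and 2 at day 21, and their sum was 46.1–73.6 CPM at day 0 and 26.5–32.5 and 24.8–42.6 CPM at those days. NK cell genes went from 28.0–82.8 CPM at day 0 to 4.90–20.2 at day 14 and 3.53–11.2 at day 21, with 6 of 6 called lower at both days, and B cell genes from 86.6–148 to 16.5–68.4 and 23.7–30.8 CPM, with 5 of 5 lower. T cell genes were at 45.9–73.3, 43.8–89.6, 30.9–50.9 and 29.9–85.9 CPM at the 4 days. Of these 8 genes, Lck (-1.08 on the log2 scale) and Cd8a (-1.21) were called lower at day 14, Il7r (0.85) was called higher at day 21, and the median was -0.71 and -0.69. Ptprc, the pan-leukocyte gene CD45, was at 136–218, 123–158, 103–171 and 89.9–197 CPM and was not called at any day.

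The 8 alveolar macrophage genes split: 3 were called lower and 1 higher at day 14, and 4 lower at day 21. The gene called higher, Marco, ranged from 21.1 to 434 CPM at day 14 (SD 199) and overlapped day 0, at 19.0 to 29.7 CPM. At day 21 the falls were led by Krt79 at -6.31, Fabp1 at -5.98 and Ear1 at -3.23 on the log2 scale, while the list's sum, mostly Chil3, was 702–1014 CPM at day 0 and 1123–2366 CPM at day 21. Macrophage genes outside the alveolar list summed to 192–252 CPM at day 0 and 2100–5827 CPM at day 14, with 7 of 8 called higher. Fibroblast genes summed to 1311–1989 and 3588–13132 CPM, with 4 of 6 called higher (Col1a1, Col1a2, Col3a1 and Lum), while Dcn was at -0.42 and Pdgfra at -0.23 on the log2 scale. The 8 endothelial genes summed to 3831–4479, 2564–3359, 2126–3281 and 2810–3681 CPM at days 0, 7, 14 and 21. Of 6 alveolar type 2 genes, 4 were called lower at day 14 and 6 at day 21 (median -1.98), and their sum went from 27913–38007 CPM at day 0 to 18228–26722, 7139–21064 and 4549–9854 CPM at days 7, 14 and 21. Of 5 alveolar type 1 genes, 1 was higher and 0 lower at day 14, and 1 higher and 2 lower at day 21. The part of any of these cells in the Schlafen values was not tested.

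The genes most like each member across the 15 libraries were listed by Pearson's r of log2 CPM among 13929 genes, and also by r after each day's mean was taken out. These points share day effects, library depth and cell makeup, and r is given as a description. For Slfn4 the nearest were Trim30b (r = 0.946, within days 0.884), Ang (0.936, 0.584), Rasgrp4 (0.932, 0.814), Atf5 (0.931, 0.615) and Dpf2 (0.926, 0.765). Trim30b averaged 24 CPM at day 0 and 6.20, 5.47 and 4.01 CPM at days 7, 14 and 21.

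For Slfn1 the nearest were H2-Q10 (0.944, within days 0.833) and Cxcr2, the neutrophil chemokine receptor (0.928, 0.797), which averaged 64.0 CPM at day 0 and 18.8, 19.8 and 8.86 CPM later. Slfn9 was nearest to the condensin subunit Smc2 (0.968, 0.839) and the aminopeptidase Lap3 (0.967, 0.708), and Smc2 averaged 12.3 CPM at day 0 and 30.8, 32 and 23.4 CPM later. Slfn5 was nearest to Marf1 (0.934) and Sptbn1 (0.930), Slfn2 to Cmas (0.900) and Relt (0.870), Slfn3 to Styx (0.929) and Ubxn2a (0.901), and Slfn8 to Rgs7bp (0.855) and Eya3 (0.809). The members themselves had no common course: r was 0.80 between Slfn1 and Slfn4, 0.24 within days, and 0.03 between Slfn1 and Slfn2.

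**Figure D5:**
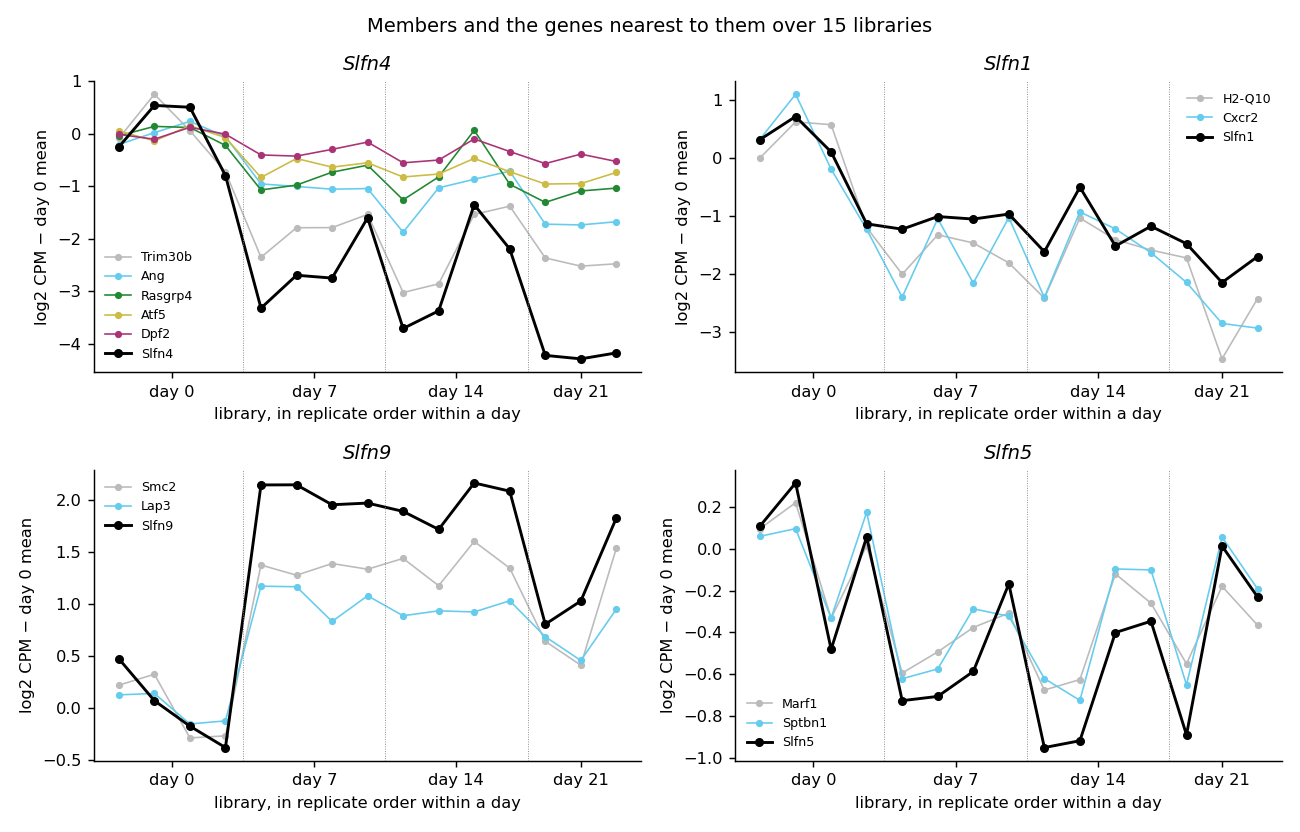
Log2 CPM minus its day 0 mean (y axis) in the 15 libraries (x axis, by day, lines joining libraries in replicate order with no meaning of time within a day) for Slfn4, Slfn1, Slfn9 and Slfn5 in black and their nearest genes in colour. Slfn4 goes further below day 0 than its 5 nearest genes in all 3 day 21 libraries.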

How the data were processed

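Whole-lung polyadenylated RNA was sequenced in 15 libraries as paired reads of 150 bases. The authors trimmed reads with TrimGalore 0.6.10, aligned them to mm10 with HISAT2 2.1.0, dropped multi-mapped reads and deposited unnormalized counts per Ensembl gene from HTSeq 0.6.0. The annotation release and strand setting are not given in the sources used here. This loss of multi-mapped reads lowers counts of near-identical genes. Total counts were 15652008 to 18020661.

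Counts were tested with edgeR 4.0.16 in R 4.3.3 (filterByExpr, TMM, quasi-likelihood test), with all 15 libraries in 1 fit, day as the only term and Benjamini-Hochberg adjustment over 17457 genes. The common biological coefficient of variation (22.8%) was shared by all days. Calls were made at an adjusted p under 0.05 and a fold over 1.5. Log2 CPM used a prior count of 2. On simulated day 14 against day 0 counts for 17177 genes, 64% of genes changed by 1 on the log2 scale and 93% of those changed by 2 were recovered, with 4 false calls. Same-numbered libraries were treated as unpaired (correlation of deviations from -0.24 to 0.40, median 0.04, over 0.1 in 8 of 21 pairs). Libraries of different number gave -0.33 to 0.26 (median -0.03, over 0.1 in 13 of 63 pairs).

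The members and lists were chosen with earlier results of these data known. Named were the members, other Schlafen genes, up to 3 called interferon genes with the largest rise or fall, Irf7, Irf9 and Ifng, up to 2 abundant genes of each marker list where needed, the 5 genes most like Slfn4 and the 2 most like each other member, and overlapping genes. A further gene of that rule is not reported here. Predicted and Rik genes were left out of the likeness ranking. Alternatives were DESeq2 1.42.0, limma voom (3.58.1), RLE factors, total count scaling, other filters, the 2 groups alone, a replicate block, mitochondrial share as a covariate, no fold threshold and leaving out each library. Fits within libraries over 3.5% or under 2.5% mitochondrial counts, and all alternatives for the interferon counts, were added after seeing the data.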

Additional observations from a re-analysis of the deposited data

Results flagged for a closer look

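In day 14 replicate 2, Slfn3 stood apart at 3.06 CPM, below the other 3 day 14 libraries at 4.46 to 4.59 CPM. It was the 1 library that did so among 21 groups of 4 checked, where chance gives about 5%. The log2 fold change of Slfn9 at day 21 against day 7 was -0.77, a tested difference between the 2 later days' effects against the same day 0 libraries.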

How the results depend on the processing

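Of 707 alternative values of a member's log2 fold change, 663 kept their direction and side of the thresholds or, where no test was made, moved by less than 1 SD, 27 reversed, 15 lost the call, 1 gained it and 1 moved: Slfn9 at day 7, 1.77 among libraries with under 2.5% mitochondrial counts. Of 141 alternative counts, 128 stayed within 1.5 times. The cause was not tested for any change below.

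Among libraries with over 3.5% mitochondrial counts, 1 member other than Slfn4 was called at day 14 against day 0 (Slfn9) and 2 interferon response genes, and Slfn8 stood at 0.0091. With mitochondrial share as a covariate, 0 members were called at day 21 against day 7, where Slfn8 stood at 0.0090, and at day 14 against day 7 Slfn1 was at 0.14, Slfn3 at 0.23, Slfn5 at 0.044 and Slfn9 at 0.24. Fitting the 2 groups alone at day 21 against day 7 lost Slfn9 (adjusted p = 0.0589 by edgeR) and gained Slfn1 (-0.70, adjusted p = 0.0429).

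Leaving out 1 library, the members called at day 21 against day 7 ranged from 0 to 1, and interferon response genes called from 2 to 5 at day 14 and from 3 to 7 at day 21 against day 0. The log2 fold changes then ranged, for Slfn8, from -0.19 to 0.15 at day 14 and -0.069 to 0.23 at day 21 against day 0, -0.29 to 0.011 at day 21 against day 7 and -0.091 to 0.30 at day 21 against day 14. For Slfn1 and Slfn5 they ranged from -0.37 to 0.059 and -0.20 to 0.045 at day 14 against day 7, and for Slfn3 and Slfn5 from -0.025 to 0.30 and -0.016 to 0.41 at day 21 against day 7. For Slfn2 they ranged from -0.18 to 0.22 at day 21 against day 14.

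At day 21 against day 14 Slfn2, at 0.0044, was at -0.0057 with DESeq2, -0.0052 with RLE factors, -0.0084 with limma voom and -0.016 without a filter. The replicate block put it at -0.064, put Slfn4 at day 14 against day 7 at -0.0046, and changed no other direction and no call of a member. Slfn4 there, given without a test, was at -0.37 with mitochondrial share as a covariate, -0.042 with limma voom and from -0.49 to 0.55 on leaving out 1 library. Slfn2 at day 7, also without a test, was at -0.14 with that covariate, -0.099 among libraries under 2.5% and from -0.066 to 0.12 on leaving out 1 library, against 0.077 with all.

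Level comparisons between members rest on division by exon length, and without it all 28 levels moved. Slfn3, with at most 108 counts, is limited by depth, as are Slfn4 at day 21 (57 to 62 counts) and Slfn9 at day 0 (55 to 87).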
